A study of Homo sapiens with 18 samples.

Results

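The 10 snoRNA host genes described here are SNHG1, SNHG3, SNHG5, SNHG6, SNHG7, SNHG8, SNHG12, SNHG15, GAS5 and ZFAS1. They were taken by name from the deposited table, where they hold 117 of 145326 transcripts, and the transcripts of each gene were summed, which gave 10 of 36793 genes with an estimated count above 0. The members were chosen by their gene-level estimated counts over all 6 conditions, which were already known, so the members' own levels and changes are a description and are not evidence for a change of the set.

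A snoRNA host gene is transcribed into an RNA that is spliced, and the small nucleolar RNAs (snoRNAs) are trimmed out of the introns that splicing removes. Box C/D snoRNAs (named SNORD) guide ribose methylation and box H/ACA snoRNAs (named SNORA) guide pseudouridylation, mostly of ribosomal RNA. The spliced exons of these hosts form a long non-coding RNA, and for several hosts that RNA is degraded by nonsense-mediated decay when translation runs and accumulates when translation is slowed. Many host genes start transcription at a cytosine followed by pyrimidines, the 5′ terminal oligopyrimidine (TOP) start also found at genes of the translation machinery.

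RNA was measured in 18 samples of spheroidal aggregates embedded in Matrigel in electrotaxis channels, from the human cell lines U87 mg (glioblastoma) and DAOY (medulloblastoma), both long established. Each line was sampled without a field (0 h) and after 2 h or 8 h in a direct-current electric field (dcEF) of 250 V/m, with 3 samples per group and 3 channels pooled into a sample. Per the study's methods, the samples were the 3 with the best quality control results of those prepared. No aggregates held in a channel for 2 h or 8 h with the field off enter the comparisons, and the effects of field and of channel time cannot be told apart. In these bulk samples, fewer cells that express a gene and less RNA per cell cannot be told apart either.

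The estimated counts summed to between 8341976 and 15610886 per sample, and the 10 host genes took from 0.0319% to 0.0637% of them. Of the glial and glioma markers, VIM (3997 to 5341 TPM in U87 mg, 1719 to 2970 TPM in DAOY) and CD44 (2565 to 3547 and 885 to 1533 TPM) were high in both lines, CHI3L1 was at 76.3 to 156 TPM in U87 mg and 2.35 to 15.3 TPM in DAOY, NES was at 5.58 to 9.25 and 0.17 to 0.71 TPM, and GFAP and S100B reached at most 3.11 and 0.173 TPM in U87 mg. Of the medulloblastoma markers in DAOY, ZIC1 (8.28 to 15.8 TPM) and ZIC2 (6.86 to 20.9 TPM) overlapped their ranges in U87 mg (2.53 to 12 and 4.02 to 9.68 TPM). GLI1 was lower in DAOY (at most 0.93 TPM) than in U87 mg (1.51 to 7.19 TPM). OTX2 reached 2.44 TPM in DAOY, and BARHL1 was listed at 0 in every DAOY sample. ATOH1 was looked up, and no value was found for it in either line. PAX6 had overlapping ranges in U87 mg (19.3 to 35.3 TPM) and DAOY (17.0 to 35.1 TPM).

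Between them the 10 genes contain 35 annotated snoRNA genes. GAS5 holds 11, SNHG1 holds 8, SNHG12 holds 4, ZFAS1 holds 3, SNHG3, SNHG5 and SNHG7 hold 2 each, and SNHG6, SNHG8 and SNHG15 hold 1 each. All 8 snoRNAs of SNHG1 are of the box C/D type, and both of SNHG3 and both of SNHG7 are of the box H/ACA type. Library preparation selected RNA with a poly-A tail, which is not a preparation for snoRNAs. Of the 35 snoRNA genes, 4 have a row in the table, and 3 of these (SNORA73A, SNORA24 and SNORA9) reached at most 1 estimated count over all 18 samples. SNORA73B reached 25 counts over the 18 samples and at most 4 in any one. The output of these genes as snoRNAs could not be measured with these poly-A selected libraries. The sequence of SNORA73B is shown as the one snoRNA of the set that was counted more than once. It lies on the plus strand of chromosome 1 (GRCh38, chr1:28508559-28508762), and the capitals mark the ACA box near its 3′ end.
SNORA73B: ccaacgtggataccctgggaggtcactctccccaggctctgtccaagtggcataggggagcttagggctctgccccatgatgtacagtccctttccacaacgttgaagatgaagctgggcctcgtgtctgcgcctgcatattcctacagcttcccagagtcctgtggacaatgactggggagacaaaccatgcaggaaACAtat

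The promoter table of RefSeq (GRCh38.p14) has an entry for 8 of the 10 genes. SNHG6 and SNHG15 have none. The sequences around the start are shown because the TOP start is the feature that links host genes with the translation genes described further on. Each window covers 5 bases before the annotated start and 25 bases from it, and the capitals mark the run of pyrimidines that begins with a cytosine at the start itself.
SNHG1 (chr11:62855861-62855890, minus strand): tcgttCTCatttttctactgctcgtggtaa
SNHG5 (chr6:85678709-85678738, minus strand): tcggtCTTTTacgtcggccttcgcgagcgt
SNHG7 (chr9:136728160-136728189, minus strand): tcgtcCTCTgcgtgcgccggaggctgccgt
SNHG8 (chr4:118278757-118278786, plus strand): cctttCacattcgggaagcgtcgggattag
SNHG12 (chr1:28581849-28581878, minus strand): agcgcCCTTTCTCCCCgccgcattcccggt
ZFAS1 (chr20:49278637-49278666, plus strand): tcgttCTTTCgcgtctgcggtgcccggagt
SNHG3 (chr1:28505938-28505967, plus strand): tttctgattctctaactgcgcatgcttctg
GAS5 (chr1:173869021-173869050, minus strand): aattcagatgtgtttattttggagcctaca

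A cytosine stood at the start in 6 of these 8 genes and in 14.7% of all 35116 promoters of the table. In SNHG5, SNHG12 and ZFAS1 it was followed by at least 4 pyrimidines, with runs of 5, 11 and 5 bases counted from the cytosine, and 4.07% of all promoters had such a start. The windows of SNHG3 and GAS5 do not begin with a cytosine at the RefSeq start. The start differs between annotations. The GAS5 transcript ENST00000431268 of GENCODE 29 begins with a run of 6 pyrimidines, given here as its first 20 bases with the run in capitals. It carried 5.72% of the GAS5 counts, while ENST00000454068, the most counted GAS5 transcript (25.9%), does not begin with a cytosine. Other GAS5 transcripts share its first 20 bases, among them ENST00000449589 (4.28%) and ENST00000436656 (3.50%). In SNHG8, ENST00000602819 (1.74% of its counts) begins with a run of 5, while its most counted transcript (56.4%) does not begin with a cytosine. In SNHG3, ENST00000447507 (0.46% of its counts) begins with a run of 7, while its most counted transcript (81.3%) does not begin with a cytosine.
GAS5, ENST00000431268: CTTTTCgaggtaggagtcga

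The letters TATAA, searched on the gene's own strand between 40 and 20 bases before the start, were found in SNHG5, SNHG7, SNHG8, SNHG12 and ZFAS1, 5 of 8, and in 3.77% of all promoters. The search was chosen after the sequences had been seen. On either strand anywhere in the 300 bases of the table, TATAA was found in 6 of 8 members and in 20.4% of all promoters, and CACGTG, which reads the same on both strands, in 1 of 8 (SNHG7) and in 7.26%. The 20-base windows that hold TATAA are given with those letters in capitals.
SNHG5: cgggaggctaTATAAggagc
SNHG7: ccgtacgcgcTATAAaaggc
SNHG8: cagttcTATAAgagagcgtg
SNHG12: aggggcggcctaTATAAgct
ZFAS1: atctttggttaTATAAggga

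Levels between genes are compared in TPM, a relative abundance scaled by transcript length. In U87 mg at 0 h, SNHG5 stood highest with 413 ± 69.2 TPM (SD, n = 3), next to ZFAS1 with 393 ± 130 TPM and SNHG8 with 383 ± 51.8 TPM, and the ranges of neighbours among these 3 overlapped. SNHG6 (274 ± 61.0 TPM), GAS5 (203 ± 55.0 TPM) and SNHG1 (187 ± 33.3 TPM) followed, each overlapping the next. SNHG12 (49.3 ± 4.73 TPM) and SNHG3 (43.8 ± 3.38 TPM) overlapped each other and stood apart from SNHG1 above and from SNHG7 (32.8 ± 2.02 TPM) below. SNHG15 was lowest, at 7.55 ± 3.47 TPM.

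The order in DAOY at 0 h was different. SNHG5 was again highest, at 408 ± 46.2 TPM, and stood apart from SNHG6 (277 ± 50.6 TPM), which overlapped GAS5 (245 ± 26.8 TPM). ZFAS1 (122 ± 21.9 TPM) and SNHG1 (114 ± 25.7 TPM) overlapped each other. SNHG8 came sixth with 61.4 ± 18 TPM and overlapped SNHG3 (34.9 ± 14.6 TPM), and SNHG7, SNHG15 and SNHG12 closed the order at 23.1 ± 8.43, 19.5 ± 7.97 and 18.1 ± 4.01 TPM, with each range overlapping the next.

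**Figure D1:**
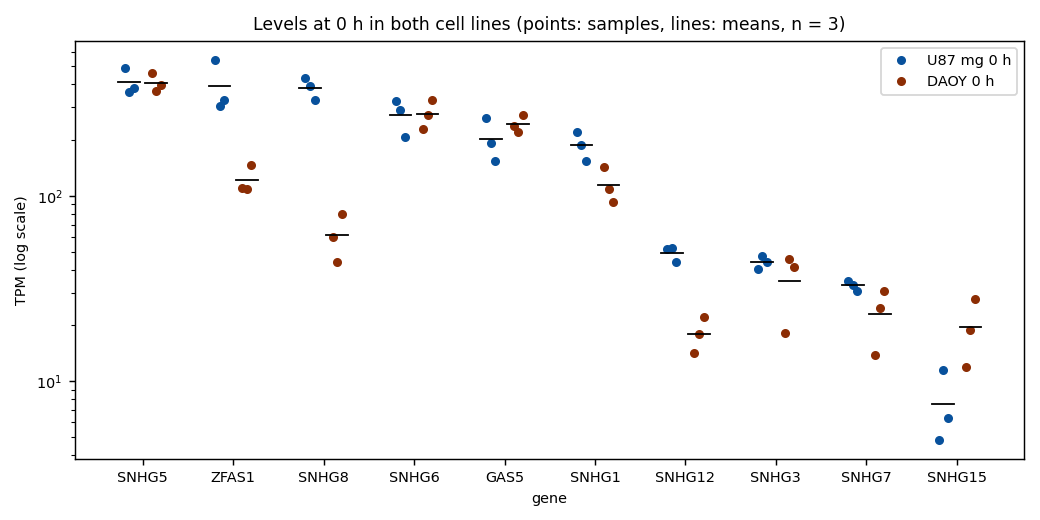
TPM at 0 h on a log scale (vertical axis) for each host gene (horizontal axis), with 3 samples as points and the mean as a line, U87 mg in blue and DAOY in brown. SNHG5 sits at about the same level in both lines (413 and 408 TPM), while ZFAS1, SNHG8 and SNHG12 lie lower in every DAOY sample than in every U87 mg sample.

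The unexposed lines were compared in one fit of the 18 samples with edgeR's quasi-likelihood test. A gene was called at a false discovery rate (FDR) below 0.05 after Benjamini-Hochberg adjustment over all genes tested. Of the 10 genes, 7 were called lower in DAOY, against 28.5% of the 16605 genes tested, and 1 was called higher, against 31.9%. Nothing is read from these counts, because the set was chosen with these levels known. Values within a gene are given as CPM, the estimated counts scaled to library size.

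SNHG8, the host of SNORA24, showed the largest difference of the set, a log2 fold change of -2.57 (standard error 0.20). Its CPM in the 0 h samples was 58.8, 51.8 and 44.8 in U87 mg and 7.33, 7.75 and 11.1 in DAOY. At no time did a DAOY sample exceed 11.1 CPM or a U87 mg sample fall below 44.8 CPM. ZFAS1, the host of SNORD12, SNORD12B and SNORD12C, stood at 157, 82.5 and 93.1 CPM in U87 mg and at 26.9, 26.1 and 35.5 CPM in DAOY, a log2 fold change of -1.91 (standard error 0.23). ZFAS1 shares 249 exonic bases with ZNFX1 on the opposite strand, a gene with a mean of 936 counts, and whether the counting used strand is not stated, so its reads may in part belong to ZNFX1. SNHG12 (-1.54, standard error 0.30), SNHG1 (-0.95, 0.21), SNHG3 (-0.87, 0.14), SNHG7 (-0.82, 0.24) and SNHG6 (-0.49, 0.19) were the other members called lower in DAOY. SNHG15, the host of SNORA9, was the 1 member called higher (0.86, 0.30). GAS5 (0.15, 0.21) and SNHG5 (-0.28, 0.14) did not pass the threshold. On the TPM scale SNHG6 did not differ in this way, with means of 274 and 277 TPM. The TPM ranges of SNHG3 overlapped as well, with 40.4, 47.1 and 43.8 TPM in U87 mg and 18.2, 45.4 and 41.2 TPM in DAOY. SNHG6 was called in 4 of 11 alternatives and SNHG15 in 8 of 11.

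Exposure was compared inside each line, 2 h or 8 h against the same 0 h samples, in a fit of the line's 9 samples. The 2 h and 8 h comparisons of a line therefore share their controls. At 2 h, 0 genes of 14162 tested in U87 mg and 0 of 15441 in DAOY were called by edgeR, which is 0% in each line, with 1231 and 416 genes at an unadjusted p under 0.05. DESeq2 called 3 genes in U87 mg and 1 in DAOY. At 8 h in U87 mg, 0.854% of genes were called higher and 0.777% lower. At 8 h in DAOY, 2.33% were called higher and 3.48% lower.

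In DAOY at 8 h, SNHG12, SNHG7, SNHG3 and SNHG1 were called higher, 4 of 10 members beside the 2.33% of all genes, and 0 members were called lower, beside 3.48%. Of the 4, SNHG12, SNHG7 and SNHG3 also had a log2 fold change of at least 1, which is the study's second criterion and was met together with the first by 1.17% of all genes in the upward direction. On the CPM scale, all 3 samples at 8 h lay above all 3 at 0 h in 6 members (SNHG12, SNHG7, SNHG3, SNHG1, GAS5 and SNHG5), as in 12.5% of all genes. In 0 members all 3 lay below, as in 13.4%. The median log2 fold change of the 10 was 0.66, against -0.012 over all genes tested. These counts restate the choice of the set and support nothing further.

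SNHG12, which hosts SNORA16A, SNORA44, SNORA61 and SNORD99, had 6.46, 7.13 and 9.09 CPM in DAOY at 0 h, 7.69, 15.6 and 10.7 CPM at 2 h and 15.0, 29.8 and 17.4 CPM at 8 h. All samples at 8 h were above all at 0 h, and replicate 1 was the highest at 8 h. The log2 fold change at 8 h was 1.45 (standard error 0.33), a 2.74-fold level. In U87 mg the same gene had 22.7, 25.0 and 18.4 CPM at 0 h and 19.5, 29.2 and 38.2 CPM at 8 h. These groups overlapped, and the log2 fold change was 0.44 (standard error 0.22).

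SNHG7, which hosts SNORA17A and SNORA17B, was the 1 member called at 8 h in both lines. In DAOY it had 4.16, 7.13 and 8.28 CPM at 0 h, 11.1, 14.1 and 14 CPM at 2 h and 13.3, 19.5 and 17.6 CPM at 8 h. Both exposed groups lay above the 0 h group, and the log2 fold changes were 1.01 (standard error 0.27) at 2 h and 1.35 (0.28) at 8 h. In U87 mg it had 11.5, 12.6 and 10.7 CPM at 0 h, 10.8, 10.3 and 10.8 CPM at 2 h and 25.2, 17.4 and 28.5 CPM at 8 h. Here the 2 h group overlapped the 0 h group and the 8 h group stood above both, with a log2 fold change at 8 h of 1.08 (standard error 0.20), a 2.11-fold level.

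SNHG3, which hosts SNORA73A and SNORA73B, had 29.4, 33.5 and 30.3 CPM in DAOY at 0 h, 41.0, 54.6 and 49.0 CPM at 2 h and 65.3, 87.6 and 63.9 CPM at 8 h. The 3 groups did not overlap, with log2 fold changes of 0.64 (standard error 0.17) at 2 h and 1.21 (0.17) at 8 h. In U87 mg it had 60.0, 55.3 and 55.4 CPM at 0 h, 51.6, 53.1 and 53.3 CPM at 2 h and 62.8, 61.0 and 66.5 CPM at 8 h. All 2 h samples lay below and all 8 h samples above the 0 h samples there, but the log2 fold changes were small, -0.11 (standard error 0.11) and 0.20 (0.11), and neither was called. The mean at 8 h was 72.3 CPM in DAOY and 63.4 CPM in U87 mg, and at 0 h 31.1 and 56.9 CPM. SNHG3 shares 242 exonic bases with RCC1 on the same strand, and reads in that stretch can be split between both genes.

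SNHG1, with its 8 box C/D snoRNAs, had 60.1, 46.7 and 42.0 CPM in DAOY at 0 h, 40.5, 58.5 and 54.8 CPM at 2 h and 73.8, 124 and 89.1 CPM at 8 h. The 2 h group overlapped the 0 h group and the 8 h group did not, with a log2 fold change at 8 h of 0.94 (standard error 0.22). In U87 mg, SNHG1 went from 119, 89.2 and 78.5 CPM at 0 h to 113, 109 and 145 CPM at 8 h, with overlapping groups and a log2 fold change of 0.41 (standard error 0.16).

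GAS5, a host of 11 snoRNAs named for its accumulation in growth-arrested cells, was not called in either line in the main fits. In DAOY at 8 h it was called in 4 of 17 alternatives. In DAOY it had 78.9, 72.2 and 92.0 CPM at 0 h, 67.6, 109 and 88.2 CPM at 2 h and 102, 156 and 159 CPM at 8 h. The 8 h group lay above the 0 h group, at a log2 fold change of 0.78 (standard error 0.21). In U87 mg it had 96.2, 64.9 and 57.9 CPM at 0 h and 84.7, 79.3 and 70.3 CPM at 8 h, which overlapped.

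The remaining 5 members were not called at 8 h in either line. In DAOY at 8 h the log2 fold changes were 0.54 (standard error 0.29) for SNHG15, 0.50 (0.19) for ZFAS1, 0.32 (0.22) for SNHG6, 0.21 (0.12) for SNHG5 and -0.21 (0.26) for SNHG8. SNHG15 had 5.91, 9.84 and 12.5 CPM at 0 h and 13.7, 15.5 and 12.2 CPM at 8 h, and ZFAS1 had 26.9, 26.1 and 35.5 CPM at 0 h and 33.4, 41.0 and 51.5 CPM at 8 h, with overlap in both genes. SNHG5, which hosts SNORD50A and SNORD50B, was the most abundant member by TPM, with 77.8, 65.2 and 74.4 CPM at 0 h and 80.4, 85.0 and 86.7 CPM at 8 h, which did not overlap. SNHG6, the host of SNORD87, had 23.5, 29.7 and 40.9 CPM at 0 h and 31.8, 41.1 and 45.2 CPM at 8 h. SNHG8 was the 1 member with a negative value in DAOY at 8 h (7.33, 7.75 and 11.1 CPM at 0 h, 7.21, 6.42 and 9.07 CPM at 8 h), and its groups overlapped. The sign of some of these changes depended on the setting used, such as the transcripts or the scale. SNHG5 was above 0 in 15 of 17 alternatives, with a lowest value of -0.056. In TPM its ranges at 0 h (369 to 459) and 8 h (370 to 416) overlapped, with means of 408 and 392 TPM. With the most abundant transcript alone SNHG8 was at 0.94 and SNHG15 at -1.63, and SNHG15 was also below 0 with limma on log2(TPM + 1).

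**Figure D2:**
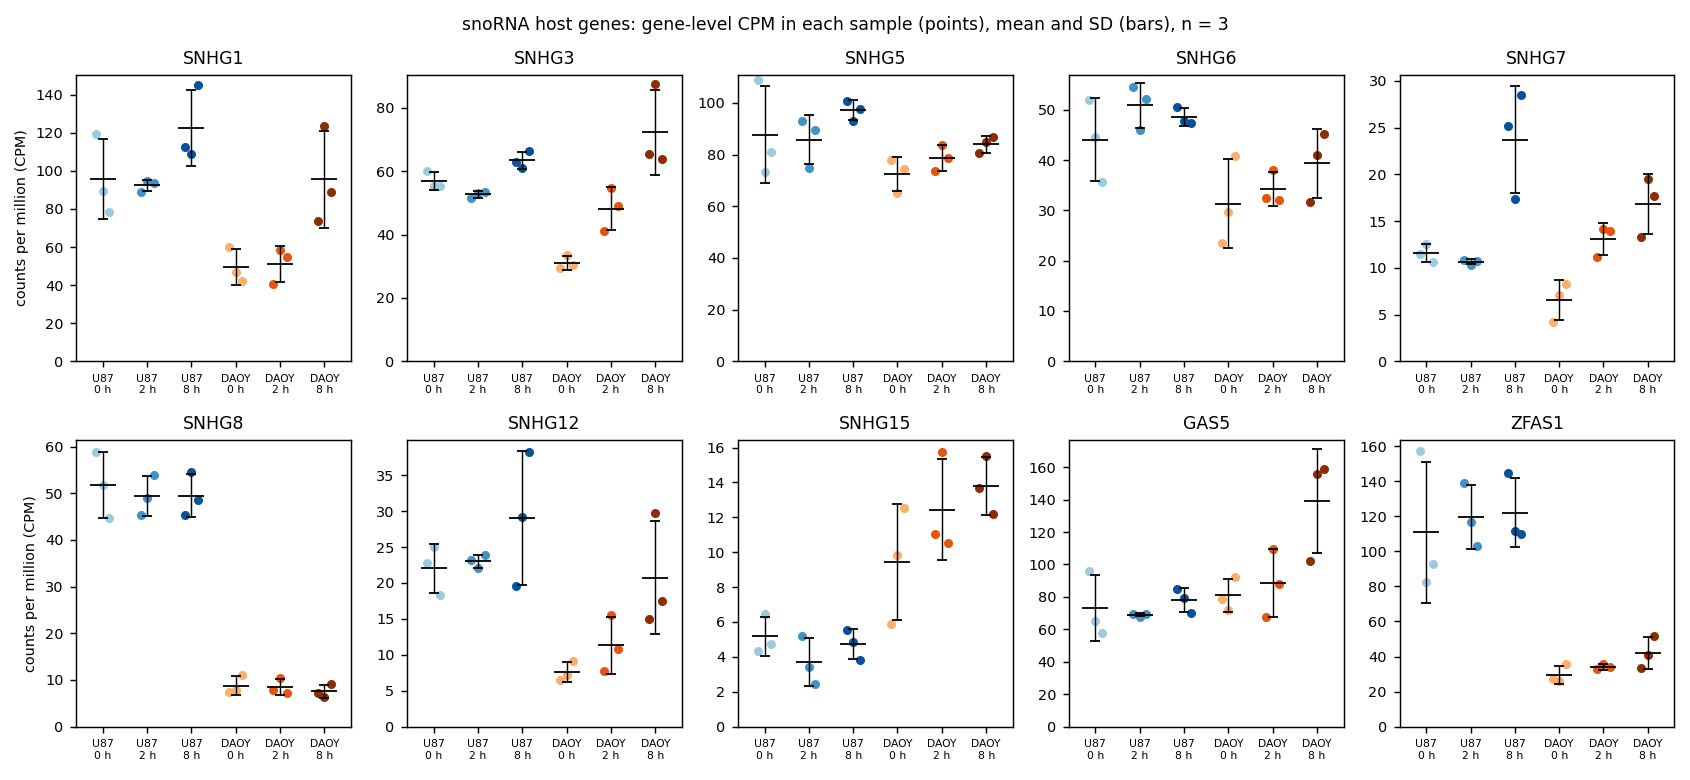
CPM (vertical axis, from 0) of each host gene in every sample, by line and hours of exposure (horizontal axis), with samples as points and the mean and SD of 3 samples as bars. In DAOY the 8 h points of SNHG12, SNHG7, SNHG3, SNHG1, GAS5 and SNHG5 lie above all 0 h points, and SNHG8 stays between 6.42 and 11.1 CPM.

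In U87 mg at 8 h, SNHG7 was the 1 member of 10 called higher, beside 0.854% of all genes, and it also met the fold criterion, as 0.155% of all genes did. No other member was called, and 0 were called lower, beside 0.777%. In 2 members, SNHG7 and SNHG3, the 8 h samples lay above all 0 h samples (6.74% of all genes), and in 0 they lay below (10.1%). The median log2 fold change of the 10 was 0.20, against -0.0020 over all genes. At 2 h, 0 members were called in either line. In CPM, SNHG3 and SNHG7 in DAOY lay above the 0 h range at 2 h, 2 of 10 members beside 3.00% of all genes. SNHG3 in U87 mg lay below its 0 h range in CPM, 1 of 10 beside 6.31%.

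**Figure D3:**
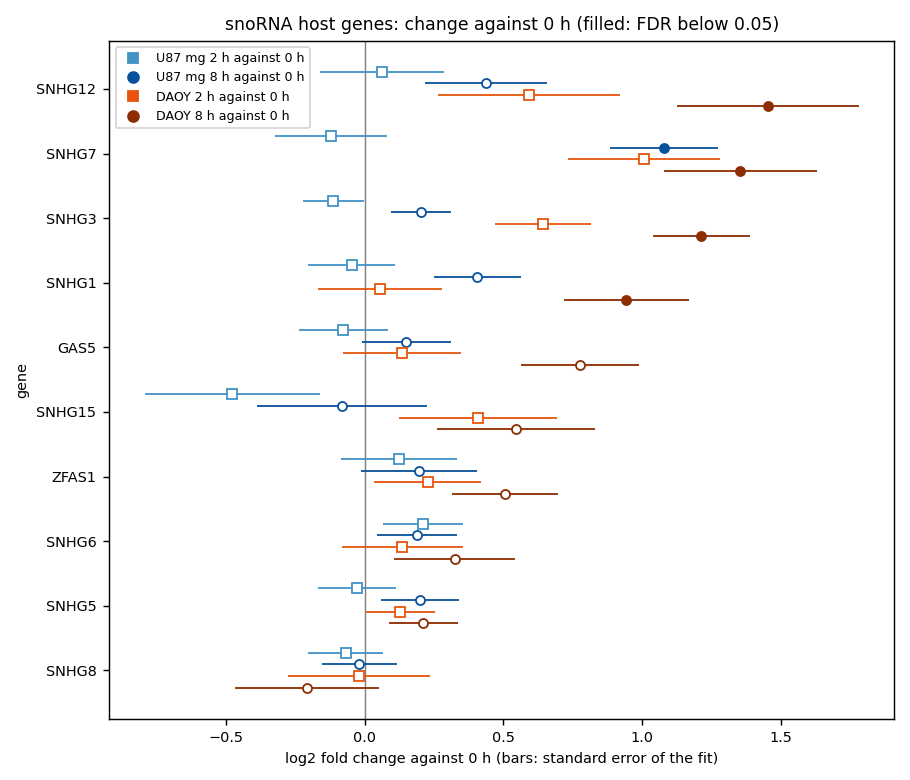
Log2 fold change against 0 h (horizontal axis) of each host gene (vertical axis) with the standard error of the fit as a bar, U87 mg in blue, DAOY in orange and brown, squares for 2 h and circles for 8 h, filled where the FDR was below 0.05. SNHG12, SNHG7, SNHG3 and SNHG1 are filled for DAOY at 8 h and SNHG7 alone for U87 mg at 8 h.

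The difference between the 8 h changes of both lines was tested as an interaction in the fit of all samples. It was called for 0 members and for 2 of 16605 genes, 0.0120%. For SNHG3 the 8 h change was larger in DAOY by 1.06 on the log2 scale (standard error 0.19) and for SNHG12 by 1.06 (0.41). For SNHG7 the difference was 0.32 (0.33). SNHG3 passed the threshold with DESeq2 and without the filter on low counts.

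The DAOY calls depended on single libraries. Without replicate 1 at 8 h, 0 members were called and 31 genes in all, without replicate 2 at 8 h SNHG3 alone was called, and without replicate 0 at 8 h 5 members were, the fifth being GAS5. Without replicate 1 or replicate 2 at 0 h, SNHG3 and SNHG7 were called. Among the DAOY samples at 8 h, replicate 1 was the highest in CPM for SNHG12, SNHG3, SNHG1, SNHG7 and SNHG15. Its share of counts on transcripts of the mitochondrial genome was 8.44%, against 2.83% to 6.03% in the other samples, and its part in the result was not tested. All 4 genes had a positive change in each fit that left out a library. In U87 mg, the call of SNHG7 was lost without replicate 1 or 2 at 0 h and without replicate 2 at 8 h, and its log2 fold change lay between 0.48, without its most counted transcript, and 1.59, with the most abundant transcript alone.

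The members also differed in which of their transcripts carried the counts. A retained-intron transcript, as the deposited table types it, keeps an intron in the final RNA, and in these genes introns hold the snoRNAs. Such transcripts took from 2.78% to 3.48% of all counts on average per group. The group means at 0 h and 8 h were 2.91% and 2.85% in U87 mg and 3.13% and 3.48% in DAOY. For SNHG3, all 3 transcripts are typed as retained introns, so its share is 100% by annotation. SNHG12 had shares from 78.5% to 85.5% as group means. SNHG7, SNHG8, SNHG15 and ZFAS1 have no transcript of this type, which is also a matter of annotation. Annotated exons of these genes include SNORA17A and SNORA17B (SNHG7), SNORA24 (SNHG8), SNORA9 (SNHG15) and SNORD12 (ZFAS1), so transcripts typed otherwise can also hold a snoRNA. Kallisto divides reads among overlapping transcripts, so these shares are estimates, and they were not tested.

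In SNHG1 the retained-intron share was lower at 8 h than at 0 h in both lines. It was 46.5%, 43.9% and 58.0% in U87 mg at 0 h and 32.5%, 31.8% and 39.7% at 8 h, and 59.0%, 57.0% and 69.1% in DAOY at 0 h and 55.0%, 49.2% and 41.8% at 8 h. In neither line did the 0 h and 8 h groups overlap. The share of all genes whose retained-intron shares separate in this way was not computed, so nothing is read from it. Without the retained-intron transcripts, the log2 fold change of SNHG1 at 8 h was 0.75 in U87 mg and 1.37 in DAOY, against 0.41 and 0.94 for the whole gene.

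SNHG6 went the other way. Its share was 2.27%, 2.38% and 2.65% in U87 mg at 0 h and 6.13%, 3.85% and 8.07% at 8 h, and 4.78%, 8.71% and 6.56% in DAOY at 0 h and 14.3%, 15.7% and 12.4% at 8 h. Again the groups did not overlap in either line, although the gene's total level did not pass the threshold. As for SNHG1, the share of all genes with such a separation was not computed, so nothing is read from it. In GAS5 the share in DAOY was 56.7%, 60.1% and 59.3% at 0 h and 74.3%, 80.0% and 61.8% at 8 h, while in U87 mg the groups overlapped (46.6%, 69.2% and 70.6% at 0 h, and 47.3%, 63.6% and 69.5% at 8 h). Without its retained-intron transcripts the log2 fold change of GAS5 in DAOY at 8 h was 0.24, against 0.78 for the whole gene. SNHG5 had low shares, 4.78% ± 1.29 in DAOY at 0 h and 9.63% ± 4.55 at 8 h (SD, n = 3).

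**Figure D4:**
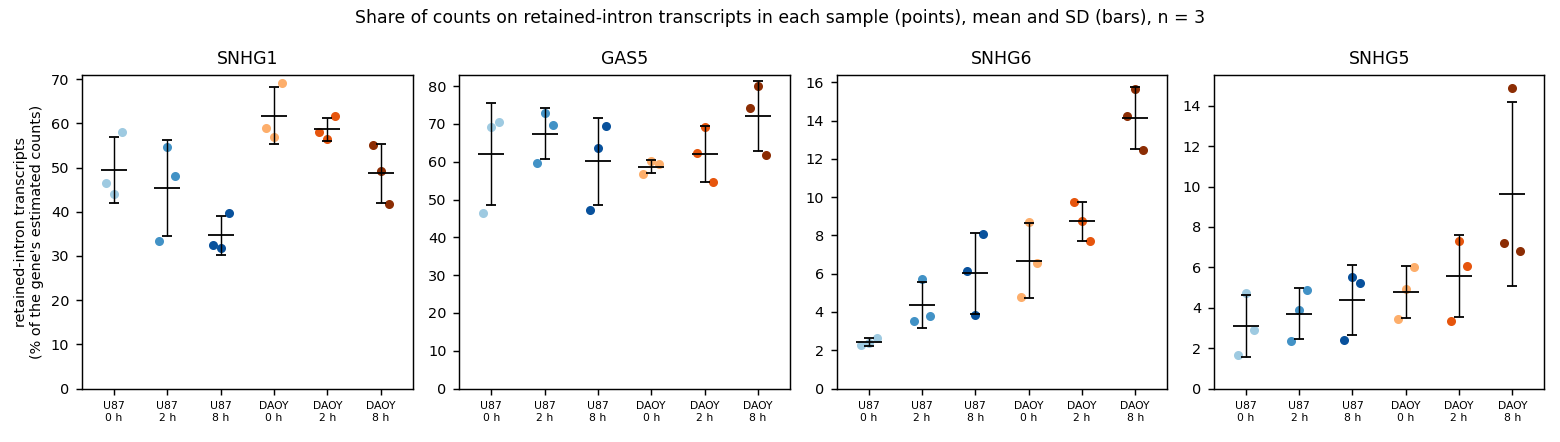
Share of each gene's estimated counts on retained-intron transcripts (vertical axis, percent, from 0) by line and hours of exposure (horizontal axis), with samples as points and the mean and SD of 3 samples as bars, for SNHG1, GAS5, SNHG6 and SNHG5. The 8 h points lie below the 0 h points for SNHG1 and above them for SNHG6 in both lines.

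In SNHG3, the transcript ENST00000413987 had 195 ± 104 estimated counts in DAOY at 0 h (SD, n = 3), 379 ± 30.2 at 2 h and 582 ± 57.9 at 8 h. The second transcript, ENST00000437681, had 136 ± 33.2 and 131 ± 21.4 counts at 0 h and 8 h. Without ENST00000413987 the log2 fold change of SNHG3 in DAOY at 8 h was 0.0021, and at 2 h it was -0.34 in DAOY and 0.30 in U87 mg, so both directions at 2 h turned. This alternative was chosen after seeing the data.

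Across the 18 samples, after centring log2 CPM within each line, the members were compared with each other. The correlation of each with the mean of the other 9 was from 0.46 (SNHG15) to 0.89 (GAS5) in all but SNHG8, where it was 0.023. The samples share libraries and groups, so these are descriptions. Among 13140 other genes tested in both lines, those most like the members' mean profile were MSX1 (r = 0.90), a homeobox transcription factor gene, IFT20 (0.89), which encodes an intraflagellar transport protein, IST1 (0.89), a regulator of the ESCRT machinery, PTRH2 (0.89), a mitochondrial peptidyl-tRNA hydrolase, and WHAMM (0.88), which promotes actin nucleation.

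Beyond the 10, the other 18 long non-coding snoRNA host genes of a fixed list were read from the same fits, and 14 of them were tested in each line. In DAOY at 8 h, 2 of 14 rose and 0 fell, beside 2.33% and 3.48% of all genes. SNHG4 rose from 2.08, 2.94 and 2.73 CPM at 0 h to 8.36, 10.5 and 6.05 CPM at 8 h. The groups did not overlap, and the log2 fold change was 1.67 (standard error 0.30, edgeR adjusted p = 0.0166). SNHG20 rose from 5.03, 7.51 and 6.26 CPM to 12.4, 12.3 and 11.1 CPM. Its log2 fold change was 0.92 (standard error 0.23, edgeR adjusted p = 0.0446). Without replicate 1 at 8 h neither was called, with an edgeR adjusted p = 0.0771 for SNHG4 and 0.138 for SNHG20, and over all alternatives these ran from 0.000205 to 0.0798 and from 0.00810 to 0.218. SNHG20 also lost its call without replicate 0 or 2 at 0 h and without replicate 0 or 2 at 8 h. The median log2 fold change of the 14 was 0.39 in DAOY and 0.051 in U87 mg at 8 h, where 0 of 14 were called. At 2 h, 0 of 14 were called in either line.

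**Figure D5:**
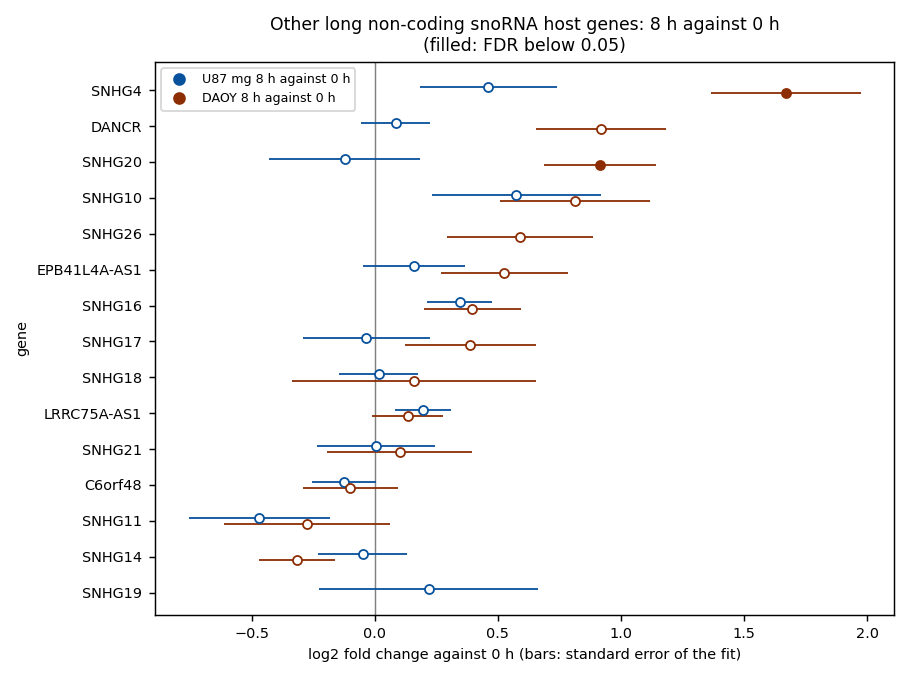
Log2 fold change at 8 h against 0 h (horizontal axis) of the other long non-coding host genes (vertical axis) with the standard error of the fit as a bar, U87 mg in blue and DAOY in brown, filled where the FDR was below 0.05. SNHG4 (1.67) and SNHG20 (0.92) are filled in DAOY and none in U87 mg, and a gene has a point only in the line where it was tested.

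At 0 h, 15 of these 18 were tested between the lines, 3 were higher and 5 lower in DAOY, beside the same 31.9% and 28.5% of all genes. SNHG26 (log2 fold change 5.82), SNHG14 (2.24), the host of the SNORD115 and SNORD116 clusters, and SNHG20 (1.09) were higher. SNHG26 had only 0.10, 0.25 and 0.13 CPM in U87 mg at 0 h, so the size of its fold rests on few counts there. SNHG18 (-3.23), DANCR (-2.67) and SNHG21 (-1.16) were the lowest of the 5 lower ones. DANCR, the host of SNORA26, stood at 43.4 ± 2.69 CPM in U87 mg and at 6.75 ± 1.79 CPM in DAOY (SD, n = 3). Without retained-intron transcripts its log2 fold change was -0.80 and it was not called.

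Most snoRNAs lie in protein-coding genes, and 47 such hosts, mainly of ribosomal proteins and translation factors, were tested. At 8 h in U87 mg 0 were called, beside 0.854% of all genes higher and 0.777% lower. At 8 h in DAOY 1 of 47 was higher and 0 were lower, beside 2.33% and 3.48% of all genes. The 1 was CNOT1, the scaffold of the CCR4-NOT deadenylase (log2 fold change 0.52, standard error 0.13, edgeR adjusted p = 0.0436). This call was lost without replicate 1 or 2 at 0 h and without any 1 replicate at 8 h. The median log2 fold change was 0.15 in each line, with 43 of 47 above 0 in U87 mg and 40 of 47 in DAOY. Over all genes tested the median was -0.0020 in U87 mg and -0.012 in DAOY. The share of all genes above 0 was not computed, so nothing is read from these counts. At 0 h, 11 of 47 were higher and 10 lower in DAOY, beside 31.9% and 28.5% of all genes, with RPL5 and NOP56 among the higher and RPS12, RPSA and RPL3 among the lower. At 2 h, 0 of 47 were called in either line.

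The proteins that form and assemble snoRNPs, such as fibrillarin (FBL), dyskerin (DKC1) and NOP58, gave 18 genes. At 2 h and 8 h 0 of 18 were called in either line, with a median log2 fold change at 8 h of -0.015 in U87 mg and -0.046 in DAOY. At 0 h, 7 of 18 were higher and 2 lower in DAOY, beside 31.9% and 28.5% of all genes, with ZNHIT6, PIH1D1 and NOP56 the most different among the higher and NOP10 and ZNHIT3 the lower ones.

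Of 15 factors of nonsense-mediated decay and the exon junction complex, UPF2 rose at 8 h in both lines. Its log2 fold change was 0.77 in U87 mg (standard error 0.15, edgeR adjusted p = 0.0288) and 0.60 in DAOY (standard error 0.15, edgeR adjusted p = 0.0473). UPF2 bridges UPF1 and the exon junction complex. RBM8A, a core subunit of that complex, fell in DAOY at 8 h (log2 fold change -0.56, standard error 0.13, edgeR adjusted p = 0.0335). The UPF2 call was lost in U87 mg without replicate 1 or 2 at 0 h or at 8 h, and the UPF2 and RBM8A calls were lost in DAOY without replicate 1 or 2 at 0 h and without any 1 replicate at 8 h. The UPF2 call was lost in 9 of 17 alternatives in U87 mg and in 12 of 17 in DAOY, limma, the replicate block and the 6 samples compared among them in both lines. The other 14 factors in U87 mg and 13 in DAOY did not pass at 8 h, and 0 of 15 did at 2 h. Of all genes at 8 h, 0.854% in U87 mg and 2.33% in DAOY were called higher, and 0.777% and 3.48% lower. At 0 h, 3 of 15 factors were higher in DAOY, UPF1 and CASC3 among them, beside 31.9% of all genes. Lower were 4 of 15, beside 28.5%, of which MAGOHB (-2.53), UPF3A and SMG5 differed most.

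The translation genes with a TOP start other than ribosomal proteins (17 genes, among them EEF1A1 and PABPC1) were not called at 2 h or 8 h in either line, 0 of 17 each time. Their median log2 fold change at 8 h was 0.18 in U87 mg, with 16 of 17 above 0, and 0.15 in DAOY, with 12 of 17 above 0. The medians over all genes tested were -0.0020 and -0.012. As above, the share of all genes above 0 was not computed. At 0 h, 5 of 17 were higher in DAOY, beside 31.9% of all genes, led by EIF4B, EEF1A1 and BTF3. Lower were 2 of 17, EEF1D and PABPC1, beside 28.5%.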

How the data were processed

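Poly-A selected RNA was sequenced as stranded single-end libraries. Per the study's methods, the authors trimmed reads and quantified them with Kallisto 0.43.0 on GENCODE 24 transcripts, and a strand setting is not given in the sources used here. The deposited table holds an estimated count and a TPM for each transcript and sample. It also holds the authors' Sleuth comparisons (fold estimates, p and q values), which were not used. Per the labels and methods, aggregates seeded at 2 cell concentrations were combined, while the RNA-seq part of the methods names 1.

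Transcripts were summed to genes through GENCODE 29 (99.2% matched, 897 unmatched joined by name). Reads divided among transcripts or overlapping genes make single shares uncertain. Summed estimated counts were rounded and tested with edgeR 4.0.16 (R 4.3.3): filterByExpr, TMM, quasi-likelihood test, 9 samples per line, and all 18 for the 0 h line difference and the interaction. A gene was called at an FDR below 0.05. CPM were scaled by TMM library sizes. The members and lists were chosen with earlier results of these data known. All members were named, up to 3 called genes per list and direction with the largest change, and the 5 genes most like the members' mean profile. Some genes that this rule selects are not reported here. P-values measure only the spread between these samples. Alternatives were DESeq2 1.42.0, limma 3.58.1 on log2(TPM + 1) and log2(TPM + 0.1), other filters, size factors, sample sets and transcript sums, a replicate block and leaving out each replicate. Same-numbered samples correlated from -0.20 to 0.43 over 18 pairs, 7 above 0.1. Differently numbered samples correlated from -0.26 to 0.44, so the numbers were not taken to pair samples. Between 2 h and 8 h in U87 mg, however, the same-numbered pairs (0.13 to 0.25) lay above the others (-0.16 to 0.0019).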

Additional observations from a re-analysis of the deposited data

Results flagged for a closer look

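SNHG3 at 2 h was singled out because, in CPM, all 3 exposed DAOY samples lay above the 0 h samples while all 3 exposed U87 mg samples lay below theirs. In TPM the groups overlapped in both lines. The DAOY samples had 18.2 to 45.4 TPM at 0 h and 33.2 to 66.9 TPM at 2 h. The U87 mg samples had 40.4 to 47.1 TPM at 0 h and 40.1 to 46.1 TPM at 2 h. The log2 fold change at 2 h was 0.64 (standard error 0.17) in DAOY and -0.11 (0.11) in U87 mg. The difference between the lines at 2 h was not tested. Without its most counted transcript, ENST00000413987, the values were -0.34 in DAOY and 0.30 in U87 mg, so both directions turned.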

How the results depend on the processing

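No called value changed its sign under any alternative run, while some values that were not called did. Counts of genes called over all genes moved by more than 1.5 times in several settings. DESeq2 gave 3 genes in U87 mg at 2 h, 553 at 8 h, 1 in DAOY at 2 h, 1437 at 8 h and 81 for the interaction. Without the filter on low counts the counts were 106, 613, 126, 1533 and 217. With limma they were 1 and 1 in U87 mg at 2 h and 1 and 1 at 8 h for both pseudocounts, and 581 in DAOY at 8 h with log2(TPM + 0.1). With only the 6 samples compared they were 2 and 0 in U87 mg at 2 h and 8 h and 208 in DAOY at 8 h. At 8 h in U87 mg and DAOY, 1 fit of all 18 samples gave 137 and 1780, the added fold criterion 86 and 479, and the most abundant transcript alone 12 and 48. With the replicate block, a shared number only, they were 110 and 422. SNHG7, the member called in U87 mg at 8 h, was lost (0 called) with limma at both pseudocounts, the block, 6 samples and the most abundant transcript. In DAOY at 8 h, 1 member was called with limma at both pseudocounts and with 6 samples, and 3 with the replicate block. With the most abundant transcript 0 were called. Without retained-intron transcripts 2 were called, and SNHG3 could not be, since all 3 of its transcripts are of that type. GAS5 was called in addition with DESeq2, without the filter on low counts and in the fit of all 18 samples. Of the other hosts there, 1 was called with limma, without the filter, with the block, with 6 samples and with the fold criterion, and 0 with the most abundant transcript. For the interaction, 1 member was called with DESeq2 and without the filter. The cause was not tested.

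Leaving out 1 replicate gave 0 to 1155 genes in U87 mg at 2 h, 0 to 738 at 8 h with 0 to 2 members, 31 to 802 in DAOY at 8 h with 0 to 5 members and 0 to 2 other hosts, 0 in DAOY at 2 h, 9226 to 9955 between the lines at 0 h with 6 to 8 members and 8 other hosts, and 1 to 4 for the interaction. As a share of TPM, the retained-intron share of SNHG5 was 2.08% in U87 mg at 2 h and 2.56% and 2.65% in DAOY at 0 h and 2 h. That of SNHG6 was 1.43%, 2.35% and 3.51% in U87 mg and 3.20%, 4.74% and 7.41% in DAOY at 0, 2 and 8 h. That of SNHG12 was 62.0%, 57.0% and 57.2% in U87 mg and 66.9%, 68.1% and 67.8% in DAOY, and that of GAS5 was 53.7% in DAOY at 0 h. Low counts of SNHG15, SNHG7 and SNHG4, and of SNHG26 in U87 mg, limit the precision of their folds.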
